A study of Rattus norvegicus with 4 samples.

Results

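Granzyme B (Gzmb), the plasminogen activators Plat and Plau, the urokinase receptor Plaur, the serpins Serpine2, Serpinf1 and Serpinb2 and the trypsin-like proteins Prss23 and Prss35 are 9 genes of secreted or granule serine proteases, their inhibitors and their relatives. They were read in RT4D6 rat Schwannoma cells after siRNA against Sox10. The 9 genes were taken through the 12 probe sets that the platform annotation gives to a single one of these symbols, out of 31042 probe sets without controls and 14217 genes, and 1 further probe set that Gzmb shares with another locus is reported apart. They were chosen from the same contrast that is described here, with its values known, so that the change of a member is given as a description, with its standard error and no p, and counts of members called carry no weight as a test.

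RT4D6 is an established rat line from a tumour of Schwann cells, which ensheath peripheral axons, and it carries glial traits that include Sox10, a transcription factor of neural crest and glia. Cells received either the wild type (specific) Sox10 siRNA or a mutant Sox10 siRNA that served as the control, and the labels give 48 h for both. There were 2 arrays with the wild type siRNA and 2 with the mutant siRNA, numbered replicate 1 and replicate 2 in each group, which the study describes as independent pairs of cell samples, all of 1 cell line. Both groups thus carry an siRNA, and untreated cells were not analysed here.

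Serine proteases of the trypsin fold cut proteins after a chosen residue, and serpins stop many of them by acting as a bait that traps the enzyme. Tissue plasminogen activator (Plat) and urokinase (Plau) turn plasminogen into plasmin, which dissolves fibrin and cuts matrix proteins, and urokinase is held at the cell surface by its receptor. In injured peripheral nerve of mice, plasminogen activation is known for clearing fibrin. Granzyme B is best known from the granules of cytotoxic T cells and NK cells, where perforin lets it into target cells and it cuts after aspartate.

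The signal is a MAS5 intensity on a linear scale, and its median was between 101.3 and 110.4 on the 4 arrays. A signal under the array's 25th percentile, which lay between 26.2 and 31.0, is treated as close to background. Signals were set on a log2 scale and centred on each array's median, and the 16125 probe sets at or above that median on at least 2 arrays were fitted with limma. A log2 fold change is wild type siRNA minus mutant siRNA, and a call is an adjusted p under 0.05 over all these probe sets. Sox10 had signals of 163.4 and 335.4 on the wild type siRNA arrays, against 2872.6 and 2890.1 on the mutant siRNA arrays, so that its level followed the labels. Of 7 glial markers measured, Sox10 among them, 7 were called lower, against 12.1% of all probe sets tested. Their summed signals were 3269 to 4430 in wild type siRNA cells and 17790 to 24250 in mutant siRNA cells. The list is no independent support, since it holds the siRNA target and also Ngfr and Erbb3, which the study had selected as lower on these arrays. Gfap, too, was known beforehand, since the study recounts that earlier profiling of these cells found it lower. Erbb3 passed the filter through the mutant siRNA arrays alone. The arrays read bulk RNA, so that fewer cells of a kind and less RNA per cell cannot be told apart.

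Of the 12 member probe sets, 8, of 7 genes, passed the filter and 4 did not. Among the 8, the fit called 5 lower, of 4 genes (Gzmb, Serpinf1, Plat and Serpine2), and 1 higher (Prss35), while Plaur and Prss23 were not called. Without the intensity trend of the fit Serpine2 was not called either. Whether Serpine2, Prss35, Plaur and Prss23 were called also depended on which array was kept. Over all 16125 probe sets 12.1% were called lower and 14.6% higher. The 2 arrays of each group did not overlap for the same 5 lower and 1 higher member probe sets, and over all probe sets this held for 31.9% lower and 35.8% higher. The median log2 fold change of the 8 was -1.36, against 0.13 over all probe sets tested. Since the members were picked on this contrast, nothing is read from these counts.

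**Figure D1:**
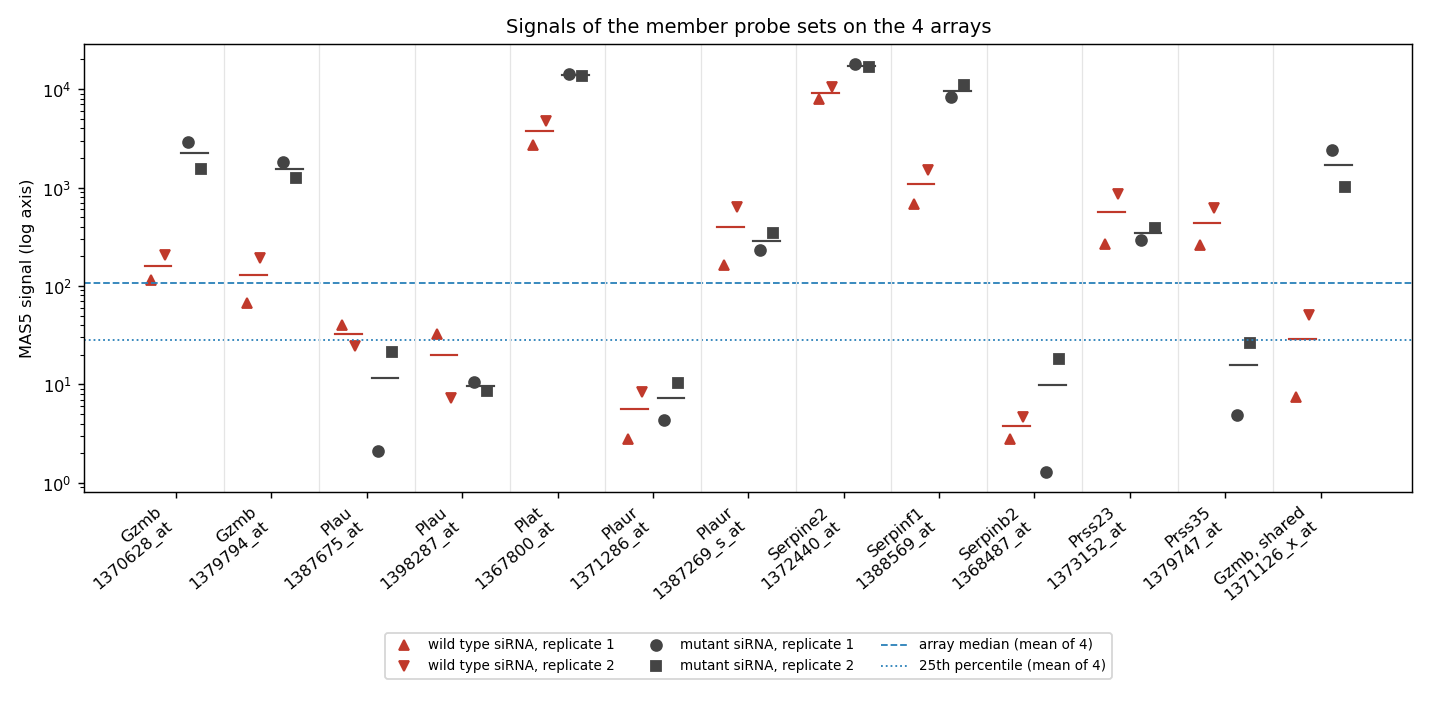
MAS5 signals (log axis) of the member probe sets on each of the 4 arrays, wild type siRNA to the left of mutant siRNA for every probe set. Points are single arrays, short lines group means, and the broken lines the array median and 25th percentile (means of the 4 arrays). Among the probe sets tested, the groups lie apart for Gzmb, Serpinf1, Plat and Serpine2, which are lower with the wild type siRNA, and for Prss35, which is higher, and they overlap for Plaur and Prss23.

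Granzyme B was the member with the lowest log2 fold change. Its gene lies on the minus strand of rat chromosome 15 (GRCr8, chr15:34459007-34462469). The sequence around its start site is shown because Gzmb, Serpinf1 and Serpine2 are the members lower with the wild type siRNA for which a start site sequence was at hand. Each window runs from 250 bases before a RefSeq start to 50 bases after it, 5′ to 3′ on the strand of the gene, from RefSeq on GRCr8. For Serpine2 and Serpinb2 the start used lies inside the listed span of the gene and not at its outer end. Capitals mark a TATA box (TATAAA, searched on the strand of the gene) or a Sox-type core (ACAAT or ACAAAG, searched on both strands). The Gzmb window covers chr15:34462420-34462719.
Gzmb: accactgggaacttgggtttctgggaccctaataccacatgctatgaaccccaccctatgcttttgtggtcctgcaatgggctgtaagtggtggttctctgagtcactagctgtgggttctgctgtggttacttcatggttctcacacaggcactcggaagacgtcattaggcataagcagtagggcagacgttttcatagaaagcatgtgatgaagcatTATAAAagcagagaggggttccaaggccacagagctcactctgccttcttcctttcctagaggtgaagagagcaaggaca

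The Gzmb window holds TATAAA at position -30, where the start base is +1, and neither Sox-type core, which says only that these letters are not in this window. The study searched a longer region around each gene and aimed its Gzmb ChIP primers at a candidate Sox core there. TATAAA occurs in 8.80% of all 33469 start site windows of the same table, ACAAT in 33.7% and ACAAAG in 18.8%. By real-time PCR the study found Gzmb lower with the wild type siRNA. Its chromatin immunoprecipitation named PLP, Sox10, SOD3 and Ptn as bound by Sox10, with Ngfr and Cmkor1 as possible further targets, and did not name Gzmb. The primers with which the study amplified Gzmb in both assays are given below, and none of the 4 matches any of these windows exactly. RT-PCR primers read cDNA and the region searched was longer than a window, so that nothing is read from this.
Gzmb ChIP sense: aagtctgcagagccacaccac
Gzmb ChIP antisense: tcaaaagcgtgggatgtgtc
Gzmb RT-PCR sense: ttcgacaaagccaatgagatatg
Gzmb RT-PCR antisense: gaatgcccgtggagttgaac

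The brighter single-symbol probe set of Gzmb, 1370628_at, had signals of 114.3 and 205.2 with the wild type siRNA, against 2929.7 and 1537.7 with the mutant siRNA. The mean was 159.8 ± 64.3 in wild type siRNA cells and 2234 ± 984 in mutant siRNA cells (SD, n = 2 each). Both wild type siRNA arrays lay far below both mutant siRNA arrays, yet remained above the array median. The log2 fold change was -3.71 (standard error, SE, 0.38), or 13.1-fold lower. The other probe set, 1379794_at, read 66.9 and 192.2 with the wild type siRNA, against 1826.4 and 1257.4 with the mutant siRNA, a log2 fold change of -3.66 (SE 0.47). Both probe sets thus gave a change of like size, and in both the mutant siRNA array of replicate 1 was the brightest and the wild type siRNA array of replicate 1 the dimmest.

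The remaining Gzmb probe set, 1371126_x_at, is paired in the annotation with LOC100361261 as well, which RefSeq lists as a pseudogene on the same chromosome (chr15:34143792-34146728), 312.3 kb from Gzmb. Its signals were 7.4 and 50.3 with the wild type siRNA, against 2385.4 and 1010.3 with the mutant siRNA. The wild type siRNA array of replicate 1 was under its 25th percentile, so that the fitted log2 fold change of -6.25 (SE 0.82) is no bound. With signals raised to the 25th percentile the level was at least 39.2-fold lower with the wild type siRNA. Which locus its RNA came from cannot be told apart on this probe set.

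**Figure D2:**
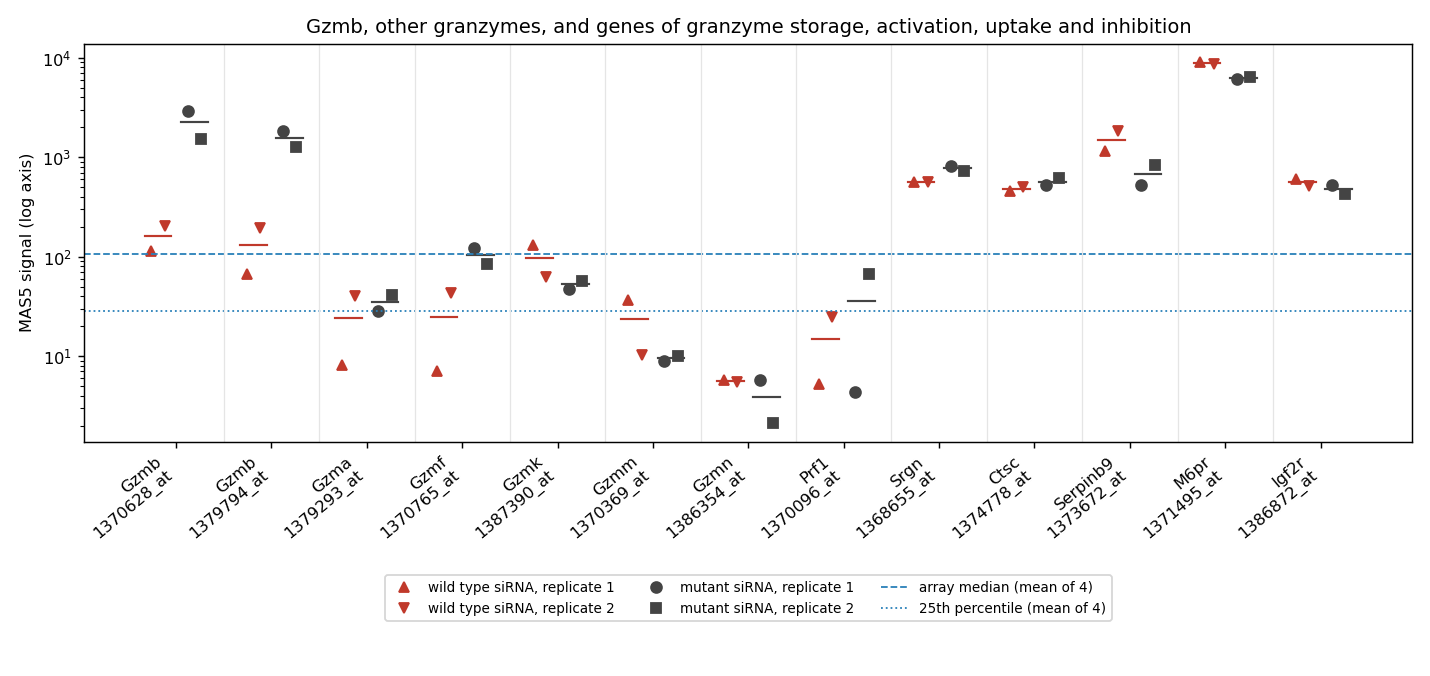
MAS5 signals (log axis) of granzyme B probe sets and of other granzymes, perforin and partners on each array, wild type siRNA to the left of mutant siRNA, with short lines for group means and broken lines for the array median and 25th percentile. The Gzmb probe sets exceed 1000 on both mutant siRNA arrays, while perforin (Prf1) stays between 4.3 and 67.0 on all 4 arrays.

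Few of the other granule genes passed the filter. Of 24 listed granzymes, granule proteases and partners, 18 had a probe set and 5 passed the filter, and of these 2 were called higher and 3 were not called. Over all probe sets tested 12.1% were called lower and 14.6% higher, and with 5 genes nothing is read from these counts. The count called lower was 0 with limma, also at an unadjusted p under 0.05 and with the methods' t-test. Perforin (Prf1), which opens the way into the target cell, read 5.2 and 24.8 with the wild type siRNA, against 4.3 and 67.0 with the mutant siRNA. Gzmf, another granzyme of rodents, read 7.0 and 42.6 in wild type siRNA cells and 122.4 and 84.4 in mutant siRNA cells. Neither passed the filter, and the 13 listed genes that did not pass had signals of 1.2 to 131.4.

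Serpinb9, the intracellular inhibitor of granzyme B, was higher with the wild type siRNA, at 1164.4 and 1818.5, against 525.9 and 829.3 with the mutant siRNA. That is a log2 fold change of 1.22 (SE 0.30, limma adjusted p = 0.0207). Its other probe set gave 1.0 (limma adjusted p = 0.0430). Without the mutant siRNA array of replicate 1 the adjusted p of the brighter probe set was 0.114 by limma. The inhibitor and the protease thus lay on opposite sides of 0 in these cells. M6pr, a mannose 6-phosphate receptor that carries lysosomal proteases, rose by 0.59 on the log2 scale (limma adjusted p = 0.0204), a call lost without any single one of the 4 arrays.

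The genes that prepare or hold granzyme B in lymphocytes were not called. Cathepsin C (Ctsc), which trims the granzyme precursor, had a log2 fold change of -0.16 (limma adjusted p = 0.622). Serglycin (Srgn), the granule proteoglycan, had signals of 559.8 and 561.5 with the wild type siRNA, against 822.1 and 730.4 with the mutant siRNA, a log2 fold change of -0.39 (limma adjusted p = 0.201).

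Markers of lymphocytes were read beside Gzmb. Of 22 T cell and NK cell markers measured, 2 passed the filter, and the 20 others had signals of 2.1 to 131.4. The summed signal of the list was 770 to 1000 in wild type siRNA cells and 897 to 1273 in mutant siRNA cells. Cd3d, a chain of the T cell receptor complex, read 9.3 and 4.7 with the wild type siRNA, against 12 and 18.8 with the mutant siRNA, all under the 25th percentile. Ptprc, which all blood leukocytes carry, read 64.3 and 29.4 in wild type siRNA cells and 29.7 and 27.4 in mutant siRNA cells. Cd3g went with Gzmb, at 53.5 and 78.9 with the wild type siRNA, against 186.3 and 335.0 with the mutant siRNA (log2 fold change -1.86, limma adjusted p = 0.0234). Cd3g passed the filter through the mutant siRNA arrays alone. Its limma adjusted p was 0.0541 without the mutant siRNA array of replicate 1 and 0.204 without that of replicate 2. Lck, a kinase of T cells, was not called (-0.09, limma adjusted p = 0.888). Among 8 mast cell and neutrophil markers the highest signal was 72.7, and of 8 macrophage markers 1 passed the filter.

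Tissue plasminogen activator (Plat, chromosome 16) was bright in both groups. Plat read 2700.8 and 4747.3 with the wild type siRNA, against 14240.2 and 13578.5 with the mutant siRNA. Its arrays did not overlap, and the mutant siRNA arrays lay closer to each other than the wild type siRNA arrays did. The log2 fold change was -1.88 (SE 0.26), or 3.68-fold lower.

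Urokinase (Plau, chromosome 15) did not pass the filter. Its probe set 1387675_at read 40.1 and 24.4 with the wild type siRNA, against 2.1 and 21.1 with the mutant siRNA, and 1398287_at read 32.4 and 7.3 with the wild type siRNA, against 10.5 and 8.6 with the mutant siRNA. Of the 2 activators of plasminogen, Plat was thus the one measured well above background.

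The urokinase receptor (Plaur, chromosome 1) was measured by 1387269_s_at at 164.2 and 628.8 with the wild type siRNA, against 230.4 and 343.6 with the mutant siRNA. The wild type siRNA arrays lay on either side of the mutant siRNA arrays, and the log2 fold change of 0.27 was smaller than its standard error of 0.56. The other Plaur probe set, 1371286_at, stayed between 2.8 and 10.4 and was not tested. Without the wild type siRNA array of replicate 1 the log2 fold change of Plaur was 1.27, and without that of replicate 2 it was -0.73, so that its direction rested on which array was kept.

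Serpinf1, also named pigment epithelium-derived factor, is a secreted serpin that does not inhibit proteases and is known for acting on neurons and blood vessels. Serpinf1 read 680.9 and 1508.6 with the wild type siRNA, against 8316.8 and 10944.5 with the mutant siRNA. The highest wild type siRNA array was thus far under the lowest mutant siRNA array, and the log2 fold change was -3.16 (SE 0.35), or 8.91-fold lower. Serpine2, also named protease nexin 1 or glia-derived nexin, inhibits thrombin, urokinase and tissue plasminogen activator. Serpine2 read 7943.9 and 10511.4 with the wild type siRNA, against 17848.9 and 16861.0 with the mutant siRNA. On the log2 scale the fold change was -0.85 (SE 0.18), or 1.80-fold lower, a smaller change than that of Plat, which it inhibits, though the difference between them was not tested.

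The start site windows of both serpins hold a Sox-type core, ACAAAG, and are shown for that. It stands at position -227 in Serpinf1 (chr10:60760849-60761148) and at -120 in Serpine2 (chr9:88637153-88637452), both on the minus strand. Of the 6 members with a window, 2 held ACAAAG, and ACAAT was found in Serpinb2 alone, at position 21. ACAAAG occurs in 18.8% of all 33469 windows. The core that the study searched for was ACAAT, which neither the Serpinf1 nor the Serpine2 window holds. A match of these letters is a description, and binding was not tested here.
Serpinf1: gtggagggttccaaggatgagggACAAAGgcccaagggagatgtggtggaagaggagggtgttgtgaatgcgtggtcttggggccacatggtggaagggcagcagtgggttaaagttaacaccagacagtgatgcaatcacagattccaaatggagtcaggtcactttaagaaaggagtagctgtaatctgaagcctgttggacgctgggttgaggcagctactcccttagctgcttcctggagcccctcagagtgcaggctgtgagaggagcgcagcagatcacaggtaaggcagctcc
Serpine2: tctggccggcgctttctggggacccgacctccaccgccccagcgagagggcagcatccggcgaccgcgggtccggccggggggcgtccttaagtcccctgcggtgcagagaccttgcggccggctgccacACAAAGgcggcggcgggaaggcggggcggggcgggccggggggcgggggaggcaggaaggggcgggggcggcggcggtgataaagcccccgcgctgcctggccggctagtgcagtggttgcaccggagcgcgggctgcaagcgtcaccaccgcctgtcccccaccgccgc

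Serpinb2, plasminogen activator inhibitor 2, which inhibits urokinase, did not pass the filter. Serpinb2 read 2.8 and 4.7 with the wild type siRNA, against 1.3 and 18.3 with the mutant siRNA, all under the 25th percentile of the arrays. Urokinase and this inhibitor of it thus both stayed under the array median on all 4 arrays.

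Prss35, a secreted protein of the trypsin family known from the mouse ovary, was the tested member that was higher in wild type siRNA cells with no overlap between the groups. Prss35 (chromosome 8) read 262.9 and 618.2 with the wild type siRNA, against 4.9 and 26.6 with the mutant siRNA. Both mutant siRNA arrays were under the 25th percentile, so that the fold is a bound, at least 14.7-fold higher with signals raised to that percentile. The fitted log2 fold change was 5.22 (SE 0.94), and the probe set passed the filter through the wild type siRNA arrays alone. Prss23, a secreted protease of the same family, read 267.0 and 859.8 with the wild type siRNA, against 294.4 and 388.1 with the mutant siRNA. Its groups overlapped and its log2 fold change of 0.58 had a standard error of 0.49.

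**Figure D3:**
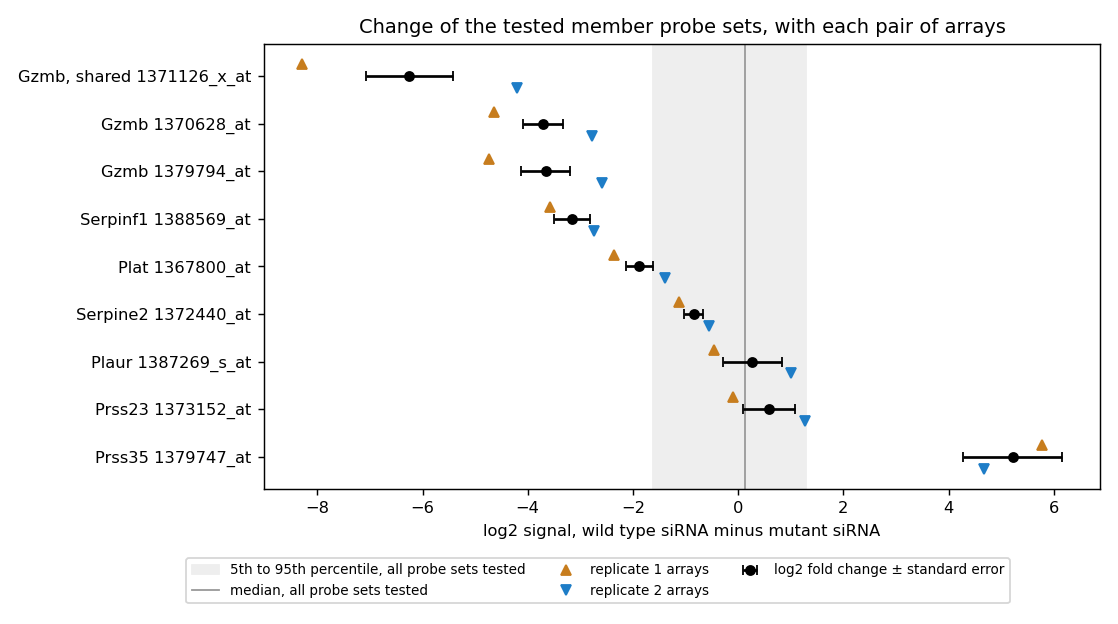
Log2 fold change, wild type siRNA minus mutant siRNA, of the 8 member probe sets tested and the shared Gzmb probe set, with bars of 1 standard error and triangles for the difference within each same-numbered pair. The grey band is the 5th to 95th percentile of all probe sets tested. The Gzmb, Serpinf1, Plat and Serpine2 values lie below 0 in both pairs, Prss35 lies above 0 in both, and Plaur and Prss23 change sign between the pairs.

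The pairs of arrays differed in size of change. For Gzmb the difference was -4.65 in the replicate 1 pair and -2.78 in the replicate 2 pair on the log2 scale, and for Sox10 it was -4.10 and -2.98. Serpinf1 gave -3.58 and -2.73, Plat -2.36 and -1.39, and Serpine2 -1.13 and -0.56, in the same order of pairs. All 5 lower member probe sets fell further in the replicate 1 pair, as did 83.4% of all 1956 probe sets called lower. Plaur gave -0.45 in the replicate 1 pair and 1.0 in the replicate 2 pair, and Prss23 gave -0.11 and 1.27. The wild type siRNA array of replicate 1 was lower than that of replicate 2 in each of the tested member probe sets.

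The size of the changes depended on which array was kept, and with 1 array left out a group is a single array. Without the wild type siRNA array of replicate 1 the log2 fold change was -0.62 for Serpine2 and 1.45 for Prss23. Without the wild type siRNA array of replicate 2 it was -1.08 for Serpine2 and -0.29 for Prss23, so that the direction of Prss23 turned. Over 9 settings of scaling, floor, block and arrays left out, the log2 fold change ranged from -4.20 to -3.23 for the brighter Gzmb probe set and from -4.45 to -2.87 for the dimmer one, whose ends came without the wild type siRNA array of replicate 2 and of replicate 1. It ranged from -3.76 to -2.56 for Serpinf1 and from -2.31 to -1.44 for Plat, with the same arrays left out at the ends.

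The single-symbol probe sets with the pattern most like Gzmb over the 4 arrays were found by the Euclidean distance of centred log2 signals, a measure in which a like size of change counts as likeness. Afap1l2 was nearest, at a distance of 0.22, with 318.7 and 530.2 in wild type siRNA cells and 7033.7 and 4524.1 in mutant siRNA cells. Enpep, a membrane aminopeptidase, followed at 0.28, with 106.8 and 216.5 in wild type siRNA cells and 2808.7 and 1840.1 in mutant siRNA cells. Anxa8 stood at 0.53, with 17.3 and 32.5 in wild type siRNA cells and 293.4 and 225.2 in mutant siRNA cells. Cdca7 stood at 0.55, with 25.6 and 33.7 in wild type siRNA cells and 455.6 and 369.8 in mutant siRNA cells. Both passed the filter through the mutant siRNA arrays alone. Their wild type siRNA signal of replicate 1 was under the 25th percentile, so that their distances rest partly on signals close to background. Sox10 stood at 0.70. The other Gzmb probe set stood at 0.56, so that Afap1l2, Enpep, Anxa8 and Cdca7 were no farther from Gzmb than its own other probe set was. These distances rest on the same 4 arrays and are a description.

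Genes of the wider plasminogen and clotting system were called in both directions, as were probe sets over the whole array. Of 38 listed genes, 34 had a probe set and 12 passed the filter, and of these 3 were called lower and 4 higher, with a median log2 fold change of 0.43. Over all probe sets tested 12.1% were called lower and 14.6% higher. Plasminogen itself, the substrate of Plat, read 36.2 and 88.3 with the wild type siRNA, against 156.8 and 97.3 with the mutant siRNA and did not pass. The plasmin inhibitor Serpinf2 was between 5.4 and 22.2.

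Procr, the endothelial receptor of protein C, rose the most of the list, with 310.6 and 348.2 in wild type siRNA cells and 82.7 and 101.8 in mutant siRNA cells (log2 fold change 1.92, SE 0.34, limma adjusted p = 0.00683). The Procr probe set passed the filter through the wild type siRNA arrays alone, and the filter on all 4 arrays left it out. Tissue factor (F3), which starts clotting, fell, with 213.5 and 550.2 in wild type siRNA cells and 840.2 and 1106.2 in mutant siRNA cells (-1.41, SE 0.41, limma adjusted p = 0.0372). Without the wild type siRNA array of replicate 1 the F3 value was -0.70 (limma adjusted p = 0.0935), and without that of replicate 2 it was -2.12. The F3 call was also lost without either mutant siRNA array, at a limma adjusted p of 0.088 without that of replicate 1 and 0.164 without that of replicate 2. Tfpi, the inhibitor of tissue factor, rose by 0.78 (limma adjusted p = 0.0109). The other Tfpi probe set, which did not pass the filter, went the other way, with 33.7 and 45.0 in wild type siRNA cells and 82.7 and 101.9 in mutant siRNA cells. Gas6, a ligand of TAM receptors, fell by 0.91 (limma adjusted p = 0.0389). Of its other 2 probe sets, neither of which passed the filter, 1 read 4.1 and 8.8 in wild type siRNA cells and 53.0 and 19.1 in mutant siRNA cells, and the other went against the fall, with 60.3 and 103.8 in wild type siRNA cells and 38.0 and 12.2 in mutant siRNA cells.

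Annexin A2 and S100a10 form a cell-surface complex that binds plasminogen and tissue plasminogen activator. Anxa2 rose by 0.60 (limma adjusted p = 0.0139) and S100a10 fell by 0.53 (limma adjusted p = 0.0202), so that the 2 partners did not move together. The S100a10 call was lost without any single array. The Anxa2 call was lost without a filter, without the intensity trend and with some single arrays left out. Over 12 settings the log2 fold change stayed between 0.53 and 0.66 for Anxa2 and between -0.62 and -0.45 for S100a10. Plgrkt, a membrane receptor of plasminogen, rose by 0.79 (limma adjusted p = 0.0196), a call lost without the intensity trend and with some single arrays left out. Lrp1, which takes up complexes of proteases with serpins, was not called (0.41, limma adjusted p = 0.261). Nor were the thrombin receptor F2r (0.41, limma adjusted p = 0.112) and the protease-activated receptor F2rl1 (0.40, limma adjusted p = 0.763). With the replicate pairs as a block F2r and F8, a clotting cofactor, passed limma's test (adjusted p = 0.0409 for F2r and 0.0296 for F8).

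**Figure D4:**
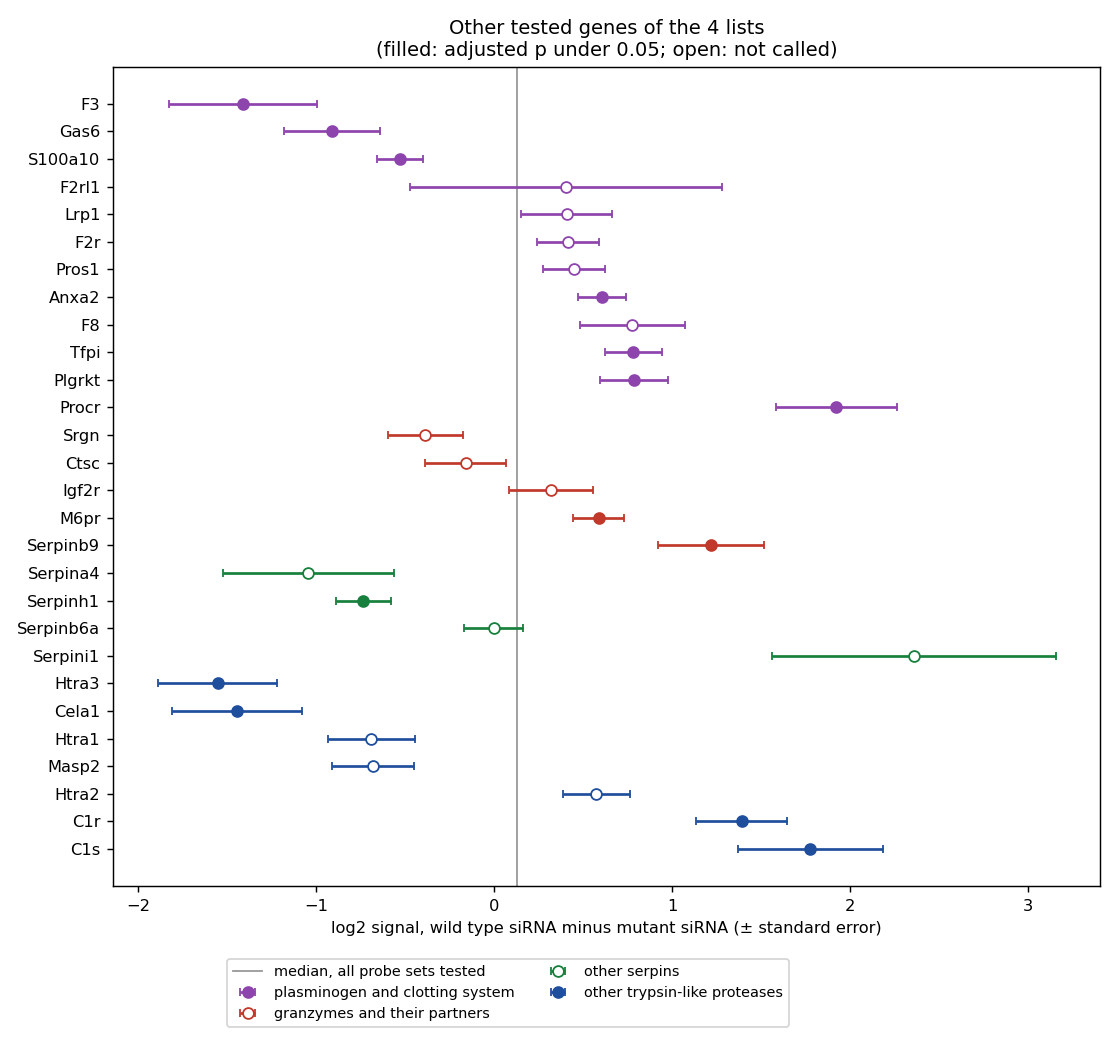
Log2 fold change, wild type siRNA minus mutant siRNA, of each tested gene in the 4 lists of plasminogen and clotting genes, granzymes and partners, other serpins and other trypsin-like proteases, with bars of 1 standard error and filled marks for genes called by limma. Each list holds genes on both sides of 0, with Procr at 1.92 and F3 at -1.41 in the plasminogen and clotting list.

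Of 27 other serpins, 21 had a probe set and 4 passed the filter, with 1 called lower, against 12.1% of all probe sets tested. Serpinh1, the collagen chaperone of the endoplasmic reticulum, fell by 0.74 (limma adjusted p = 0.0116), while its other probe set gave -0.33 (limma adjusted p = 0.668). Serpini1, neuroserpin, an inhibitor of tissue plasminogen activator in the nervous system, read 135.7 and 141.1 in wild type siRNA cells and 17.0 and 47.9 in mutant siRNA cells. Its log2 fold change was 2.36 (SE 0.80, limma adjusted p = 0.0592), which missed the threshold. The mutant siRNA array of replicate 1 was under its 25th percentile there, and the probe set passed the filter through the wild type siRNA arrays alone. With signals raised to the 25th percentile the log2 fold change was 2.02 (limma adjusted p = 0.0313). Serpinb6a, an intracellular serpin, had signals of 3496.7 and 3789.6 with the wild type siRNA, against 3666.4 and 4054.7 with the mutant siRNA, which overlapped.

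Of 58 other trypsin-like proteases, 33 had a probe set and 7 passed the filter, 2 called lower and 2 higher. Over all probe sets tested these shares were 12.1% and 14.6%. C1r and C1s, which start the classical complement pathway, were the higher ones. C1r rose by 1.39 on the log2 scale, with 1386.1 and 1054.8 in wild type siRNA cells and 583.2 and 408.0 in mutant siRNA cells (SE 0.26, limma adjusted p = 0.00766), and its partner C1s rose by 1.78 (SE 0.41, limma adjusted p = 0.0164). C1s passed the filter through the wild type siRNA arrays alone. Masp2, a protease of the lectin pathway of complement, had a log2 fold change of -0.68 and was not called (limma adjusted p = 0.0592). The other Masp2 probe sets did not pass the filter and had higher means with the wild type siRNA. They read 23.2 and 7.6, against 5.0 and 7.1 with the mutant siRNA, and 52.5 and 23.5, against 2.5 and 6.1, most under the 25th percentile. Htra3, a secreted protease, fell, with a log2 fold change of -1.55 (SE 0.34, limma adjusted p = 0.0132). The other Htra3 probe set tested gave -1.27 (limma adjusted p = 0.314), and its groups overlapped. Cela1, a pancreatic type elastase, had a log2 fold change of -1.45 (SE 0.37, limma adjusted p = 0.0230). Cela1 passed the filter through the mutant siRNA arrays alone. With the replicate pairs as a block 4 of this list were called lower and 3 higher, with Masp2 (adjusted p = 0.0324 by limma) and Htra1 added among the lower and Htra2 among the higher.

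Of the 14 genes called among the 28 tested in these 4 lists, 2 (Procr and C1r) kept the call in every limma setting that tested them, 11 settings for Procr and 12 for C1r. The other 12 lost it without 1 array, 10 of them without the mutant siRNA array of replicate 1, 8 without the wild type siRNA array of replicate 1, 8 without the mutant siRNA array of replicate 2 and 2 without the wild type siRNA array of replicate 2.

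Some smooth muscle markers went with the same contrast. Of 7 markers, 5 passed the filter and 3 were called higher with the wild type siRNA (Myl9, Acta2 and Tagln), against 14.6% of all probe sets tested. The summed signal was 32450 to 44310 in wild type siRNA cells and 6797 to 12330 in mutant siRNA cells. The study recounts earlier profiling of these cells in which smooth muscle genes, smooth muscle actin among them, rose with the Sox10 siRNA. The list is thus no independent support. Myh11, which was tested and not called, passed the filter through the wild type siRNA arrays alone. Tagln, an actin-binding protein of smooth muscle, had a log2 fold change of 1.72 and Acta2, smooth muscle actin, of 2.37, with the Acta2 call lost without the mutant siRNA array of replicate 1 (limma adjusted p = 0.0808). Smtn, smoothelin, had a log2 fold change of -0.84 and was not called (limma adjusted p = 0.0633). Desmin (Des) did not pass the filter and read 30.6 and 53.3 in wild type siRNA cells and 62.8 and 96.6 in mutant siRNA cells, so that the markers did not all go one way. The part of these markers, or of the glial markers, in the changes of the proteases and serpins was not tested.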

How the data were processed

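RNA of 4 RT4D6 samples was hybridised to Affymetrix Rat 230 2.0 arrays. The authors deposited intensity values, linear MAS5 signals of the probe sets, which the submitters' processing notes name without a version. The 2% trimmed mean of all arrays is 500.2 over all probe sets. Detection calls were not used here. Of 31099 probe sets 57 controls were left out, and symbols came from the platform annotation, which gives 20826 a single symbol. The log2 signals were centred on the array median, and 16125 probe sets at or above it on at least 2 arrays went into limma (version 3.58.1, run under R 4.3.3), fitted by lmFit, moderated by eBayes along the mean intensity, and adjusted after Benjamini-Hochberg. Python 3.11.15 with pandas 2.3.3 made the tables, and matplotlib 3.10.9 the plots. The fit was tested on simulated data.

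The members and the gene lists were chosen with earlier results of these data known. A list gene counts once, by its tested probe set with the highest mean log2 signal. Named genes are the members, the called list genes with the largest change (up to 5 a list), measured partners of members and the 5 genes nearest in pattern to Gzmb. A few more list genes and marker genes were named after their values were seen. No adjusted p is given for a member.

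Same-numbered arrays entered another fit as a replicate block, because the study describes pairs. Their deviations from the group means correlated at 0.14. Other alternatives were other scalings, filters, floors and variance models, the methods' t-test (unpaired, on log2 values) and each array left out. With 2 arrays a group an exact two-sided permutation test cannot go below 0.333, and 2 arrays limit the precision. Promoter sequences were taken from RefSeq (GRCr8), where 6 of 9 members matched, and primer sequences from the study's supplements.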

Additional observations from a re-analysis of the deposited data

How the results depend on the processing

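Limma called 1956 probe sets lower and 2348 higher. Without the intensity trend it called 1187 lower and 1177 higher, and the methods' t-test after Benjamini-Hochberg adjustment called 0 lower and 2 higher, against 1386 lower and 2444 higher at an unadjusted p under 0.05. With the replicate block the counts were 2580 lower and 3308 higher. Signals as deposited gave 2280 lower and 1940 higher and quantile normalization 2150 lower and 2043 higher, and the median log2 fold change of all probe sets tested was 0.13 after centring, 0.05 as deposited and 0.08 after quantile normalization. With 1 array left out, the lone array of its group was assumed to vary like the other group. Leaving out 1 array at a time gave 706 to 2519 lower and 924 to 2128 higher.

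Without the intensity trend the plasminogen and clotting list had 0 genes called lower and 1 higher, the granzyme list 0 higher and the other serpins 1 higher (Serpini1). That last count was also 1 with signals raised to the 25th percentile and 1 with it as a pseudocount. The trypsin-like list had 4 called lower with the signals as deposited, 4 with the replicate block and 1 with the filter on all 4 arrays. Leaving out 1 array at a time gave 0 to 2 lower and 1 to 5 higher in the plasminogen and clotting list, 0 to 1 higher in the granzyme list, 0 to 1 lower in the other serpins, and 0 to 3 lower and 1 to 3 higher in the trypsin-like list. The replicate block changed no log2 fold change. The filter on all 4 arrays left 6 member probe sets, without the dimmer Gzmb probe set and Prss35. With a pseudocount the log2 fold change of Prss35 was 3.42. Low signals limit Prss35, Plau and Serpinb2. The cause of these shifts was not tested.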

Other observations

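Some dim genes beside the members did not overlap between the groups although they did not pass the filter. Plasminogen (Plg), the granzyme Gzmf and Klrd1, a receptor chain of NK cells, each had lower signals with the wild type siRNA. Klrd1 read 3.3 and 14.1 in wild type siRNA cells and 54.6 and 61.1 in mutant siRNA cells. Zap70, a kinase of T cells, went the other way, at 47.7 and 63.7 in wild type siRNA cells and 14.5 and 6.9 in mutant siRNA cells. None of these probe sets passed the filter, and they were chosen after their values were seen. Both wild type siRNA signals of Klrd1, both mutant siRNA signals of Zap70 and the Gzmf signal of wild type siRNA replicate 1 were under the 25th percentile. Over all probe sets tested, the groups did not overlap for 31.9% lower and 35.8% higher, but that set leaves out these genes. The share among probe sets that did not pass the filter is not given here, so that nothing is read from these genes.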
